A study of Mus musculus with 6 samples.

Results

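The genes described here make cholesterol and fatty acids or regulate that synthesis. A list of 33 gene symbols was taken, and a probe set was used where the platform annotation gave it exactly 1 symbol and that symbol was on the list. Where a gene had several such probe sets, the 1 with the highest mean log2 signal over the 6 arrays stood for it. This found 32 of the 33 genes, among 18193 genes with a probe set of a single symbol. Acat2 was not analysed here. All 32 lay above the filter on dim probe sets, which 12948 genes passed. The arrays were hybridised with RNA of mouse CD4+ cells, that is helper T lymphocytes, isolated from spleen, peripheral and mesenteric lymph nodes and then cultured. The 6 arrays carry the labels Control, RA or Ro, with 2 arrays each. RA stands for retinoic acid, the vitamin A metabolite in the title of the study, and Ro is not expanded in the labels. The labels give no strain, age or genotype, and no dose or time of RA or Ro. A culture protocol stands only in the label of Control replicate 2: 5 days with IL-2, TGF-b1, IL-6, IL-1b, IL-23, IL-21 and TNF-a and with antibodies to IL-4 and IFN-gamma.

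Cholesterol is built from acetyl-CoA through mevalonate and isoprenoid units to squalene, which is closed into a ring and trimmed to cholesterol in a series of reductions and isomerisations. The enzymes are controlled together by SREBP, a transcription factor held in the endoplasmic reticulum by Insig proteins while sterols are plentiful and released to the nucleus when they run low. SREBP also drives the fatty acid enzymes, whereas LXR, a sterol sensor that binds DNA with the retinoid X receptor RXR as its partner, turns on genes that export sterols. T cells raise SREBP targets when they are activated and divide, since new membrane is needed.

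The start regions of these genes were read from the RefSeq table of the GRCm38.p6 build, which gives 250 bases before and 50 bases after each annotated start. Of the 32 genes 24 had an entry. Those without were Sqle, Scd1, Abcg1, Scd2, Stard4, Fdps, Fads1 and Fdft1. Searched on both strands were CCAAT, the box bound by NF-Y, a factor that acts beside SREBP, the sterol regulatory element TCACNCCAC, and the E-box CACGTG, which reads the same on either strand. CCAAT stood in a window of 20 of the 24 genes, against 41.1% of the 27025 genes in the table, and in 13 of 13 matched genes of the mevalonate and sterol arms. It was present in 3 of 6 matched fatty acid genes. The sterol element was found only in Hmgcs1 (1 of 24, against 1.44% of all genes), and the E-box in 5 of 24 (8.09% of all genes). A match is a string of letters and not a shown binding site. Printed first is the window of Hmgcs1, picked after the values were seen because it is the only one with the sterol element, and then those of the 3 genes with the largest RA minus Ro difference, of either sign, that hold any of the motifs. Capitals mark the matches (ATTGG is CCAAT on the opposite strand), and no 2 matches overlap in the windows printed. The Hmgcs1 window is chr13:119690101-119690400 on the plus strand, with the sterol element at base 114 and CCAAT matches at bases 14, 75, 206 and 261. The Abca1 window is chr4:53159846-53160145 on the minus strand, with an E-box at base 104. The Dhcr7 window, 1 of 3 listed for that gene, is chr7:143829964-143830263 on the plus strand, with CCAAT at bases 166 and 202. The Acss2 window is chr2:155517793-155518092 on the plus strand, with CCAAT at base 178.
Hmgcs1: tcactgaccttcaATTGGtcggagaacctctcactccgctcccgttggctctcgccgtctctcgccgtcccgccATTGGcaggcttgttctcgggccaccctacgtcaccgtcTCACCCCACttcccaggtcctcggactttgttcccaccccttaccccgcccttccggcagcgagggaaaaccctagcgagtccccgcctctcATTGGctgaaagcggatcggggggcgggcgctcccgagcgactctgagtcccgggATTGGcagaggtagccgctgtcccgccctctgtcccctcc
Abca1: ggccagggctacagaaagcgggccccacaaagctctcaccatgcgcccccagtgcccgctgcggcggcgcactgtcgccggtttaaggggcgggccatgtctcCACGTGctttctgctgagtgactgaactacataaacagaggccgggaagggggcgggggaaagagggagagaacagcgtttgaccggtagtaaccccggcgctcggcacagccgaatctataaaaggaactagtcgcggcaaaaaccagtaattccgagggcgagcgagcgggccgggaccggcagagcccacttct
Dhcr7: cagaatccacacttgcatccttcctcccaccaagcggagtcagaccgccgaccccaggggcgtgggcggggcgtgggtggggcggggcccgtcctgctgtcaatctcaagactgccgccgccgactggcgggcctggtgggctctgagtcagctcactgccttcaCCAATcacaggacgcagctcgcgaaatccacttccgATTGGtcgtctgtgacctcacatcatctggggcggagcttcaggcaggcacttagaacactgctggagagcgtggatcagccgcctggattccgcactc
Acss2: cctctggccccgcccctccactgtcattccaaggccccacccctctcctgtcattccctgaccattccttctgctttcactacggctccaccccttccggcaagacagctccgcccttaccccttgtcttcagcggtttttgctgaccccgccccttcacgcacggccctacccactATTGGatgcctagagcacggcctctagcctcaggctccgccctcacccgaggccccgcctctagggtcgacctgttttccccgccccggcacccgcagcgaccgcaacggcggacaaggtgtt

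Signals below are the deposited probe set intensities after each array was scaled to a common median, in arbitrary units, and are compared between arrays within a gene, not between genes. Log2 differences are of log2(signal + 3.014). With this scaling the median tested gene still lay at -0.13 for RA minus Ro, 0.13 for RA minus Control and 0.24 for Ro minus Control, so positions relative to that median gene are given beside the differences. The array medians before scaling ran from 16.3 to 23.7. Control replicate 2 stood apart: its log2 values correlated with those of the other 5 arrays at 0.911 to 0.915 across probe sets, where those 5 correlated with each other at 0.961 to 0.972. The Y-linked gene Eif2s3y was at 1.20 on it and at 718 to 968 on the others, and Xist was at 5321 on it, 573 on Control replicate 1 and 12.5 to 22.7 on the RA and Ro arrays. The T cell markers were bright on every array (10 measured, summed signal 28800 to 37530, with Cd4 from 570 to 1668). The 4 B cell markers summed to only 51.4 to 121. Differences in bulk RNA cannot tell fewer cells of a type from less RNA per cell. The labels do not say whether the arrays of a group came from separate cultures or animals, so every p-value measures the spread between these arrays. For RA and Ro that spread may be technical. The Control arrays differ in Eif2s3y and Xist as given above, so they are not repeats of the same RNA. Both Control arrays also lay above all RA and Ro arrays in Xist. The part of that difference between the groups in the comparisons with Control was not tested.

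**Figure D1:**
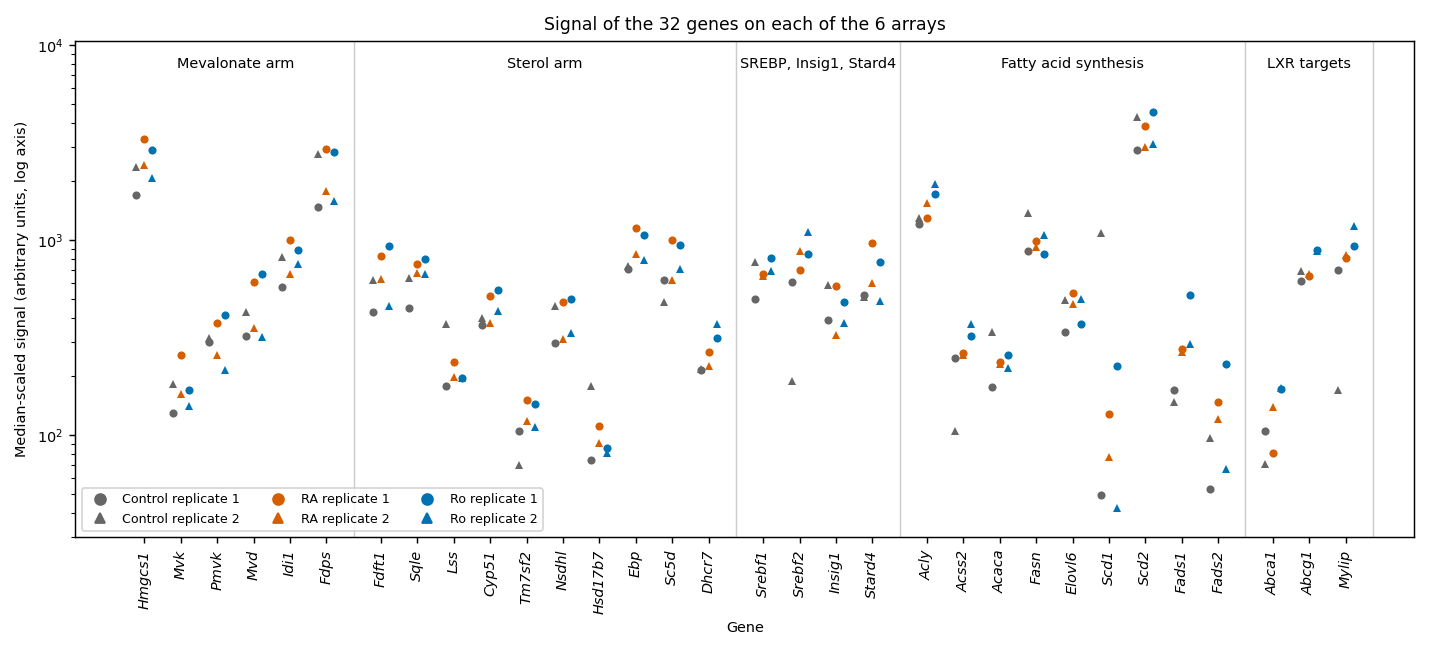
Median-scaled signal (arbitrary units, log axis) of each of the 32 genes on the 6 arrays, grouped by role; grey is Control, orange RA and blue Ro, with circles for replicate 1 and triangles for replicate 2. In the mevalonate arm both circles of RA and Ro lie above the triangles of the same colour for 6 of 6 genes, while Scd1 and Srebf2 show the widest gaps between the Control arrays among the fatty acid genes and the regulators.

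RA and Ro were compared first. The differences do not use the Control arrays, but each SE and p from the fit of all 6 arrays takes in the spread between them, Control replicate 2 included. Neither arm of cholesterol synthesis separated RA from Ro. Over the 32 genes the median difference was 0.0005, which is 0.13 above the median gene, and 21 of 32 lay above the median gene. The RA arrays lay above both Ro arrays for 2 of the 32 and below them for 8, where 8.47% of all tested genes were higher without overlap and 30.7% lower, so the count of lower genes is near the background. None met a 2-fold difference without overlap (1.85% of tested genes did so higher in RA and 2.79% lower). In the limma fit of all 6 arrays 0 of the 32 passed an adjusted p of 0.05, with 0% of 29531 probe sets called. In that fit 0 had an unadjusted p under 0.05 (2.29% of tested genes). In the limma fit of the RA and Ro arrays alone 0 of the 32 passed, the lowest adjusted p being 0.830. There 0 had an unadjusted p under 0.05 (6.37% of tested genes), while 0.0287% of 27900 probe sets were called. The SE of a member's difference, given below from the fit of all 6 arrays, was 0.365 in the median and ranged from 0.267 to 1.38. In the fit of the 4 arrays it was smaller for 32 of 32 genes, 0.265 in the median and 0.209 to 0.709. The gap between the fits was wide for Mylip (0.61 against 0.23), Srebf2 (0.54 against 0.25), Acss2 (0.43 against 0.23) and Scd1 (1.38 against 0.71). The sign of the median difference rested on single arrays. It was -0.23 without RA replicate 1, 0.25 without RA replicate 2, 0.13 without Ro replicate 1 and -0.27 without Ro replicate 2. It rested on the scaling too, with 16 genes higher and 16 lower in RA by value after median scaling, 8 and 24 as deposited, 22 and 10 after quantile normalization and 23 and 9 after scaling to the 75th percentile. The number above the median gene was 21, 21, 22 and 21 in these 4 settings. That number also rested on single arrays. It was 14 without RA replicate 1, 23 without RA replicate 2, 24 without Ro replicate 1 and 13 without Ro replicate 2.

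The mevalonate arm gave the most even result, with 6 of 6 genes above the median gene and 6 of 6 overlapping between RA and Ro. Hmgcs1 encodes the synthase that joins acetyl-CoA and acetoacetyl-CoA into HMG-CoA. It measured 3294 and 2414 in RA, 2908 and 2072 in Ro, and 1703 and 2357 in Control. The highest and the third highest signals thus came from RA, with Ro values between and below them, and the log2 difference of 0.20 (SE 0.33) was smaller than its error. Mvk, mevalonate kinase, had the largest difference of the arm, 0.39 (SE 0.36), from 257 and 163 in RA and 170 and 141 in Ro, against 130 and 183 in Control. Only RA replicate 1 stood clear of the rest. Fdps, which makes farnesyl diphosphate, the branch point to sterols and to protein prenylation, had 2935 and 1781 in RA and 2817 and 1585 in Ro. Its Control arrays, at 1470 and 2761, overlapped most of that range. Mvd, the decarboxylase that yields isopentenyl diphosphate, was at 610 and 353 in RA and 673 and 319 in Ro, a difference of 0.0028 (SE 0.46), on a probe set that may cross-hybridise. Idi1, the isomerase of that product, was at 999 and 671 in RA and 893 and 753 in Ro. Pmvk, phosphomevalonate kinase, was at 374 and 258 in RA and 414 and 216 in Ro. In each of these 3 genes the difference within a group was many times that between the groups.

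The sterol arm, from squalene to cholesterol, had 8 of 10 genes above the median gene and a median of 0.02. Sqle, the squalene epoxidase that controls flux into the arm, measured 753 and 674 in RA, 802 and 670 in Ro, against 447 and 642 in Control. Fdft1, squalene synthase, had 831 and 628 in RA and 931 and 459 in Ro, so that both Ro values lay outside the RA pair, on opposite sides. Dhcr7, the reductase of the last step to cholesterol, was the only sterol gene lower in RA without overlap: 267 and 227 in RA, 315 and 373 in Ro and 216 and 218 in Control. Both Ro arrays were above both RA arrays, which were above both Control arrays. Its log2 difference of RA minus Ro was -0.47 (SE 0.29; limma unadjusted p = 0.146 with all 6 arrays and 0.0940 with the 4 arrays), and in fold of mean signals Ro was 1.40 times RA. Hsd17b7 and Lss, a keto reductase and the lanosterol synthase, were the only 2 members higher in RA without overlap. Hsd17b7 had 111 and 91.0 in RA and 85.8 and 81.1 in Ro, a difference of 0.26 (SE 0.45). Lss had 237 and 198 in RA and 196 and 197 in Ro, a gap between the nearest arrays of about 1 unit of signal, on a probe set that may cross-hybridise. Cyp51, the lanosterol demethylase, was at 518 and 377 in RA and 554 and 434 in Ro. Ebp, a sterol isomerase, was at 1151 and 852 in RA and 1065 and 793 in Ro. Sc5d, a sterol desaturase, was at 996 and 625 in RA and 940 and 714 in Ro. These 3 overlapped, as did Tm7sf2, a sterol reductase (152 and 118 against 144 and 110), and Nsdhl, a dehydrogenase that removes methyl groups from the ring (484 and 311 against 498 and 333).

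Among the regulators, the 2 SREBP genes were somewhat lower in RA by value. Srebf1, whose product leans towards fatty acid genes, had 670 and 651 in RA and 813 and 690 in Ro, a difference of -0.18 (SE 0.32) without overlap. That difference shrank to -0.0027 after quantile normalization. Srebf2, whose product leans towards cholesterol genes, had 705 and 881 in RA and 849 and 1104 in Ro, which overlap. Insig1, an SREBP target that feeds back on SREBP, was at 580 and 326 in RA and 481 and 377 in Ro, so the Ro pair lay inside the RA pair. Stard4, a sterol carrier of the cytosol, was at 960 and 604 in RA and 768 and 486 in Ro, a difference of 0.32 (SE 0.37). Its 3 probe sets gave 0.32, 0.51 and 0.38.

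The fatty acid genes had a median difference of -0.02, with 5 of 9 above the median gene, and the 3 members without overlap were all lower in RA. Acly and Acss2 make cytosolic acetyl-CoA, from citrate and from acetate. Acly measured 1304 and 1539 in RA, 1722 and 1933 in Ro, against 1209 and 1295 in Control, with a difference of -0.36 (SE 0.27). Acss2 had 263 and 256 in RA and 324 and 373 in Ro, with a difference of -0.42 (SE 0.43). For both genes the Ro arrays were the 2 brightest of the 6. Fads1, a desaturase of polyunsaturated fatty acids, had 277 and 267 in RA and 520 and 293 in Ro, with a difference of -0.52 (SE 0.36) that became -0.11 without Ro replicate 1. The second probe set of Fads1 went the other way, at 0.21 (70.3 and 64.0 in RA, 58.4 and 56.7 in Ro). Acaca and Fasn, the carboxylase and the synthase that carry the core of the pathway, overlapped, with differences of -0.02 (SE 0.38) and 0.0095 (SE 0.33). Fasn was at 988 and 920 in RA and 848 and 1057 in Ro, and Acaca at 238 and 231 against 257 and 221. Elovl6, which lengthens the product of Fasn, was at 533 and 468 in RA and 373 and 499 in Ro. Scd2, a desaturase that makes monounsaturated fatty acids, was at 3833 and 2993 in RA and 4513 and 3087 in Ro. Its relative Scd1 was at 128 and 77.2 in RA and 226 and 42.3 in Ro, and Fads2, the partner of Fads1, at 148 and 121 against 232 and 67.1. In Scd1 and Fads2 the RA pair lay inside the Ro pair, and Ro replicate 1 was the brightest of the 4 arrays.

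The LXR targets were the only role with every member lower in RA than in Ro without overlap. That held for 3 of 3, where 30.7% of tested genes were lower without overlap. After quantile normalization or 75th percentile scaling it was 2 of 3, where 16.9% and 15.6% of tested genes were lower without overlap. Abca1, the transporter that loads cholesterol onto apolipoproteins, had 80.6 and 139 in RA and 173 and 175 in Ro, against 106 and 71.3 in Control. The Ro arrays were the 2 brightest and agreed closely, while the RA and Control values overlapped. Its difference was -0.70 (SE 0.38; limma unadjusted p = 0.110 with all 6 arrays and 0.0627 with the 4 arrays), the largest of the 32 genes, and -1.08 without RA replicate 2. Abcg1, a transporter that passes cholesterol on to high-density lipoprotein, had 658 and 673 in RA and 885 and 881 in Ro, against 615 and 691 in Control, a difference of -0.41 (SE 0.27). The second probe set of Abcg1 also separated (88.6 and 102 in RA, 147 and 160 in Ro). Mylip, a ubiquitin ligase that removes lipoprotein receptors from the surface, had 808 and 837 in RA and 932 and 1181 in Ro, a difference of -0.35 (SE 0.61). Over the 10 settings that can move these values, the difference ran from -1.08 to -0.32 for Abca1, from -0.54 to -0.22 for Abcg1 and from -0.52 to -0.17 for Mylip. None of the 3 passed the limma test. A list of 11 further genes around LXR and sterol esters was mixed. In RA 2 were higher without overlap and 2 lower (8.47% and 30.7% of tested genes). Of the 11, 7 lay below 0 and 6 above the median gene. Higher were Smpdl3a (1892 and 1596 in RA, 909 and 1498 in Ro) and Ch25h. Lower were Abca7 (617 and 633 in RA, 641 and 776 in Ro) and Abcg4. The mast cell and basophil markers moved with the same groups: 7 of 7 were lower in RA without overlap, with a summed signal of 1354 to 1739 in RA, 3576 to 5793 in Ro, and 3245 and 199 in Control. Of these markers 1, the mast cell protease Cma1, passed limma with the 4 arrays (adjusted p = 0.0224) and 0 passed with all 6. The macrophage markers summed to 452 and 563 in RA and 352 and 1051 in Ro (9 measured), with 1 of 9, Adgre1, lower in RA without overlap (53.8 and 56.1 in RA, 122 and 63.5 in Ro). Lyz2 was at 329 and 223 in RA, 621 and 150 in Ro, whereas Marco was near 0 on all 4 arrays (0.303 to 0.933). The NK cell markers summed to 723 and 789 in RA and 2443 and 981 in Ro (4 measured), and 1 of 4, Klrd1, was lower in RA without overlap (252 and 310 in RA, 887 and 527 in Ro), while Ncr1 and Klra8 were too dim to be tested. Of the 2 CD8 markers, Cd8b1 was lower in RA without overlap (61.7 and 83.3 in RA, 124 and 153 in Ro), with a limma unadjusted p of 0.0264 with all 6 arrays and an adjusted p of 0.781 with the 4 arrays. The part of these cell type markers in the LXR target values was not tested.

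**Figure D2:**
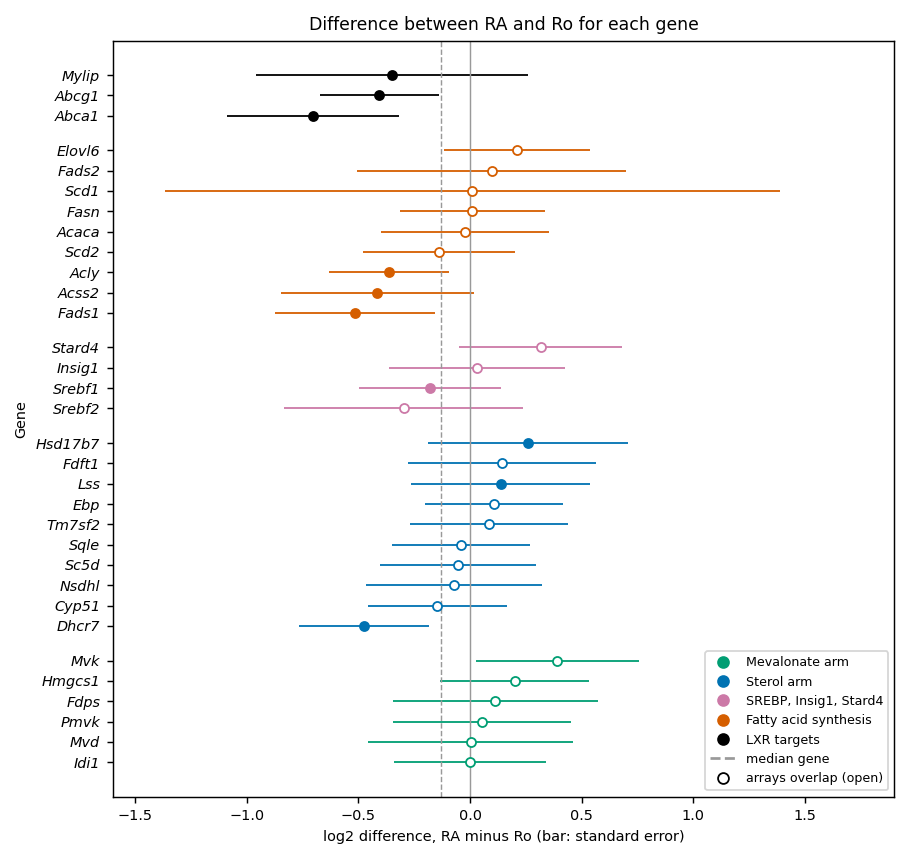
Log2 difference of RA minus Ro for each of the 32 genes, coloured by role, with bars for the standard error in the limma fit of all 6 arrays; filled points are genes whose RA and Ro arrays do not overlap, and the dashed line is the median tested gene at -0.13. The 3 LXR targets are filled and lie to the left, from -0.70 for Abca1 to -0.35 for Mylip, while the mevalonate genes are open and lie between -0.0017 and 0.39.

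The cholesterol genes differed more between arrays of 1 group than between RA and Ro. For 16 of 16 genes of the mevalonate and sterol arms RA replicate 1 was brighter than RA replicate 2, and for 14 of 16 Ro replicate 1 was brighter than Ro replicate 2, where 55.8% and 49.6% of all tested genes were. The median log2 gaps within the groups were 0.45 in RA and 0.39 in Ro. The exceptions in Ro were Lss and Dhcr7. The size of the gap within groups, averaged over RA and Ro, had a median of 0.44 for these 16 genes. The RA to Ro difference had a median size of 0.11. For all tested genes these medians were 0.34 and 0.26. The gap is between single arrays and the difference between means of 2 arrays, so the gap tends to be the larger by construction. It was the larger for 13 of 16 genes (60.8% of all genes tested). The LXR targets showed the reverse, with 0 of 3 having a larger gap within the groups. The pattern was seen under each scaling: 16 and 14 genes after quantile normalization and after 75th percentile scaling, and 15 and 13 as deposited, where 35.2% and 41.7% of all genes were brighter on these arrays. Proliferation markers followed the same arrays, with 13 of 14 brighter on RA replicate 1 and 14 of 14 on Ro replicate 1. They summed to 40900 and 26540 in RA, and to 44010 and 15580 in Ro. In Control the markers and the cholesterol genes parted. Control replicate 2 had the lower proliferation sum (10780 against 18800 on Control replicate 1), yet 14 of 16 cholesterol genes were brighter on it, where 53.0% of all genes were. As deposited, without scaling, 4 of 16 were, where 30.9% of all genes were. The part of proliferation in the cholesterol gene values was not tested.

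**Figure D3:**
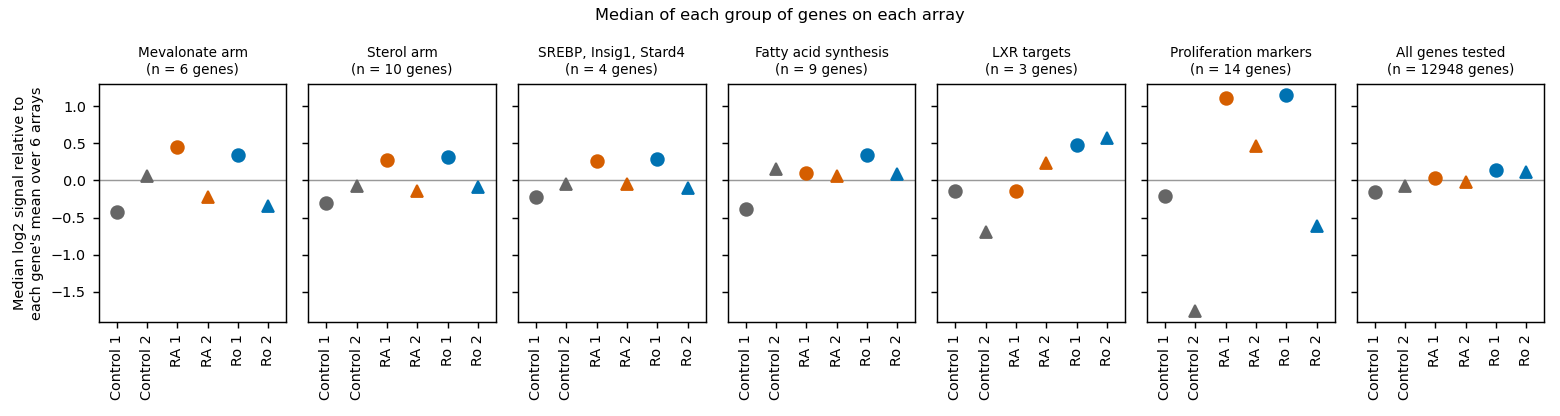
Median over the genes of each role, the 14 proliferation markers and all 12948 tested genes of the log2 signal relative to each gene's mean over the 6 arrays, 1 point per array, with circles for replicate 1 and triangles for replicate 2. The mevalonate arm stands at 0.46 and -0.22 for RA, and at 0.34 and -0.34 for Ro, so its arrays pair by brightness and not by group. The LXR targets stand highest on both Ro arrays, at 0.48 and 0.57, as do all tested genes, at 0.15 and 0.12.

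RA and Ro were each compared with Control next. These 2 comparisons share the Control arrays and are given side by side. Against both Control arrays, 14 of 32 genes were higher in RA without overlap (26.8% of tested genes) and 0 lower (8.02%), and 13 were higher in Ro (35.7%) and 0 lower (6.97%). The median differences were 0.26 for RA and 0.31 for Ro, which are 0.14 and 0.07 above the median gene. For Ro the median turned to -0.004 after quantile normalization and -0.04 after 75th percentile scaling, which are -0.02 and 0.05 from the median gene. With the filter at the 60th percentile the median gene for Ro rose to 0.33. The members then stood -0.03 from it, with 14 of 32 above. For RA under that filter they stood 0.09 from the median gene, with 20 of 32 above. A count of 10 genes had all 4 RA and Ro arrays above both Control arrays (18.7% of tested genes): Sqle, Tm7sf2, Ebp, Sc5d, Dhcr7, Srebf2, Acly, Acss2, Fads1 and Mylip. In the limma fit of all 6 arrays 0 of the 32 passed in either comparison, with 0% of probe sets called. Unadjusted p values under 0.05 numbered 0 for RA (2.93% of tested genes) and 5 for Ro (10.3% of tested genes), the latter being Fads1, Srebf2, Mylip, Abca1 and Acss2. The limma fits of 4 arrays also called 0 members, with 0 and 2 at an unadjusted p under 0.05 (2.71% and 4.38% of tested genes), and 0% of probe sets.

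Fads1 had the lowest p of the 5, and its Control signals of 171 and 148 lay close together. Against 277 and 267 in RA, 520 and 293 in Ro, its differences were 0.76 for RA and 1.28 for Ro (SE 0.36; limma unadjusted p = 0.0709 and 0.00922, adjusted p = 0.516 for Ro). Its second probe set was also brighter in both groups than in Control, by 0.64 and 0.43. Fads2 had 52.7 and 96.7 in Control, below both RA arrays and 1 of the 2 Ro arrays. Among the sterol genes Dhcr7 had the largest difference of Ro from Control, 0.65 (SE 0.29; limma unadjusted p = 0.0598, adjusted p = 0.516), from a close Control pair of 216 and 218, while its difference for RA was 0.18. The sterol genes with the largest differences for RA were Tm7sf2, at 105 and 70.6 in Control (0.62 for RA and 0.54 for Ro, SE 0.35), and Sc5d, at 624 and 481 in Control (0.52 and 0.58, SE 0.35). For Sc5d the nearest RA array, at 625, only just cleared the brighter Control array. Ebp was at 712 and 735 in Control, a narrow pair that lay under the lowest Ro array at 793. The 2-fold criterion without overlap was met by Srebf2 and Mylip in RA (4.97% of tested genes higher) and by Srebf2, Mylip, Acss2 and Fads1 in Ro (7.84% higher), and by 0 genes in the lower direction (2.32% and 2.38%).

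Most of these values turned on which Control array was used. Srebf2 was at 607 on Control replicate 1 and 190 on Control replicate 2, a ratio of 3.19. Its other probe set gave 386 and 190. Mylip was at 700 and 171, a ratio of 4.10, and Acss2 at 248 and 105, a ratio of 2.36. In each of these the first Control array lay close under the RA and Ro arrays and the other far below them. Scd1 went the other way, with 49.5 on Control replicate 1 and 1082 on Control replicate 2, a ratio of 21.8, and its second probe set had 15.4 and 186. All 4 RA and Ro arrays, at 42.3 to 226, were far below the second value. Hsd17b7 was 2.39 times and Lss 2.08 times brighter on Control replicate 2 as well. Without Control replicate 1, limma called 4 members in each comparison, among 3299 and 4966 probe sets in all, which are 11.4% and 17.2% of those tested, so 4 of 32 is near or below the background. They were Srebf2, Acss2 and Mylip as higher and Scd1 as lower than Control, with adjusted p values of 0.0124, 0.0369, 0.00754 and 0.0478 for RA and 0.00629, 0.0134, 0.00345 and 0.0375 for Ro. That fit takes the spread of Control from the RA and Ro groups. Without Control replicate 2, limma called 0 members and 0 probe sets, and the differences of Scd1 turned to 0.97 for RA and 0.96 for Ro.

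Against Control replicate 1 alone, which resembled the RA and Ro arrays, both RA arrays were brighter for 29 of 32 genes (51.8% of tested genes) and both Ro arrays for 26 of 32 (60.7%). The counts depended on the scaling: 18 and 13 after quantile normalization (36.8% and 33.6% of genes), 23 and 14 after 75th percentile scaling (40.3% and 34.1%) and 15 and 18 as deposited (19.2% and 41.1%). In each setting the share of the 32 genes was above that of all genes. Against Control replicate 2 alone both RA arrays were brighter for 15 genes and dimmer for 9 (46.2% and 37.9% of tested genes), and both Ro arrays were brighter for 13 and dimmer for 7 (49.2% and 34.8%). There the share of brighter genes was 46.9% for RA, near that of all genes, and 40.6% for Ro, below it. Against both Control arrays, 13 of 14 proliferation markers were higher in RA without overlap (26.8% of tested genes) and 2 of 14 in Ro (35.7%).

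**Figure D4:**
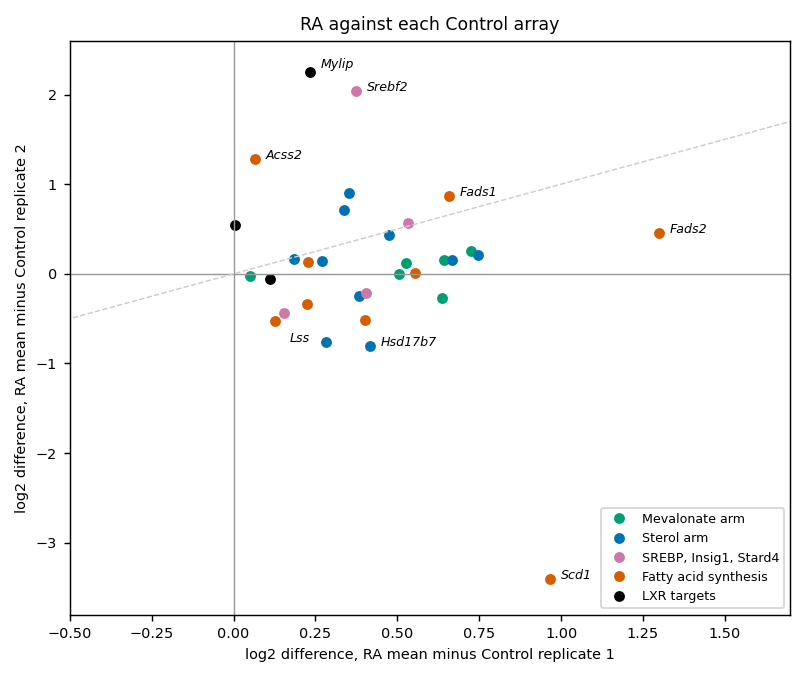
Mean log2 level in RA minus Control replicate 1 (horizontal axis) and minus Control replicate 2 (vertical axis) for each of the 32 genes, coloured by role; the dashed line marks equal differences and the axes have different scales. All genes lie at or right of 0 on the horizontal axis, while on the vertical axis they spread from -3.40 for Scd1 to 2.25 for Mylip.

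Further genes of the pathway, 45 measured of lists drawn up around it, gave a similar result for RA and Ro. Of the 42 that passed the filter, 0 passed limma with all 6 arrays and 0 with the 4 arrays. With all 6 arrays 1 had an unadjusted limma p under 0.05 (2.29% of tested genes), and with the 4 arrays 2 had (6.37%). Npc1, which moves cholesterol out of lysosomes, had 134 and 181 in RA and 340 and 260 in Ro, a difference of -0.92 (SE 0.34; limma adjusted p = 0.778 with the 4 arrays). Rnf139, a ubiquitin ligase of the endoplasmic reticulum, had 543 and 875 in RA and 1021 and 1054 in Ro. Within the list of SREBP handling, 8 of 8 were below 0 for RA minus Ro and 5 of 8 below the median gene. Of these 8 genes, 5 were lower in RA without overlap and 0 higher (30.7% and 8.47% of tested genes). Ggps1, which makes geranylgeranyl diphosphate, had 259 and 208 in RA and 304 and 333 in Ro. Fntb, the beta subunit of farnesyltransferase, had 222 and 268 in RA and 290 and 355 in Ro. Of the 7 further enzymes of the sterol and isoprenoid branches, 5 lay above the median gene. Fabp5, a fatty acid carrier, was the only 1 of 19 further fatty acid genes that was higher in RA without overlap (530 and 346 in RA, 330 and 251 in Ro; 8.47% of tested genes were), and 5 of 19 were lower (30.7% of tested genes were): Elovl5, Elovl7, Hsd17b12, Acsl3 and Lpin1. Elovl7, an elongase, was dim, at 16.8 and 20.1 in RA and 35.9 and 30.2 in Ro. Ch25h, which makes an oxysterol that feeds LXR and restrains SREBP, was dim and separated, at 19.5 and 18.2 in RA and 8.07 and 8.15 in Ro. Abcg4, a transporter related to Abcg1, was at 8.31 and 21.7 in RA, against 30.6 and 43.0 in Ro. The pseudocount of 3.014 makes differences at signals as low as those of Ch25h look smaller.

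Different probe sets of a gene did not always go the same way. The 32 genes had 74 probe sets with a single symbol, of which 69 passed the filter. Of 21 genes with several that passed, all probe sets had the same sign for 15 in RA minus Ro, 16 in RA minus Control and 14 in Ro minus Control. Hmgcs1 was among the steady ones, with 5 probe sets from 0.12 to 0.30 in RA minus Ro. Abca1 had a second, dim probe set (10.2 and 10.8 in RA, 29.99 and 7.41 in Ro), which does not repeat the separation of the first. For Hsd17b7 a second probe set put Control replicate 2 at 291 against 45.2 on Control replicate 1, a wider gap than in the probe set described above.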

How the data were processed

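The 6 oligonucleotide arrays of cultured mouse CD4+ T cells were grouped by their titles. Per the labels, biotin-labelled RNA was hybridised, and the authors deposited 1 linear intensity for each probe set. The submitters' processing notes name MAS5, without a version, and no source used here gives its target value. Detection calls were not used. Probe sets were named from GEO's platform annotation (34945 with 1 symbol, 932 with several, 9160 with none), and 64 control probe sets were left out. Each array was scaled to the mean of the array medians. Probe sets brighter than the 40th percentile on at least 2 arrays were tested (29531).

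The tests used limma 3.58.1 in R 4.3.3 (lmFit, then eBayes with trend) on log2(signal + 3.014), the pseudocount being the 20th percentile, which makes differences of dim genes look smaller. Tests were two-sided, adjusted by the Benjamini-Hochberg method, with all 6 arrays in 1 fit (3 residual degrees of freedom). The test was tried on simulated data with known changes. All simulated arrays shared the same spread, below the median SE of the tested genes here (0.41), and none stood apart. That check thus does not show what the test can find in the present arrays. The number of arrays limits the precision. The genes, related lists and markers were chosen with earlier results of these data known. All members could be named. Of each related list the 2 tested genes with the largest RA minus Ro difference were named where none passed. Naming Dgat1, Lbr, Smpdl3a, Abca7, the further fatty acid genes without overlap and single markers followed sight of their values. Other settings tried were pseudocounts of 1 and of the median signal, no scaling, quantile normalization, 75th percentile scaling, no filter or the 60th percentile, no trend, the replicate number as a block, 4 arrays, gene means and leaving out each array. The counts against Control replicate 1 and within groups under each scaling were added after seeing the data.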

Additional observations from a re-analysis of the deposited data

How the results depend on the processing

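The number of members called by limma stayed 0 for RA minus Ro in each of the 17 alternatives. For RA minus Control and Ro minus Control it ranged from 0 to 4 when arrays were left out in turn, with 4 only without Control replicate 1, and was 0 in the other alternatives. Members with a 2-fold difference without overlap numbered 0 to 1 for RA minus Ro without each array in turn. For RA minus Control there were 2, against 0 as deposited, 0 after quantile normalization, 1 with gene means and 1 to 4 without each array in turn. For Ro minus Control there were 4, against 2 after quantile normalization, 2 after 75th percentile scaling and 2 to 7 without each array in turn. The median of members for Ro minus Control moved from 0.31 to -0.004 after quantile normalization and -0.0393 after 75th percentile scaling, settings that also moved the median gene, to 0.01 and -0.09. The other medians moved by less than the spread between replicates (0.30 for RA minus Ro). The cause of these changes was not tested beyond the values given. Of 320 values of single members for RA minus Ro, 63 changed sign under an alternative, and 13 of the 32 genes never did.

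Replicate numbers are shared by the groups, but 2 pairs cannot show that they pair the arrays. The deviations of equal numbers correlated at 0.249 for RA with Ro, 0.00825 for RA with Control and -0.0268 for Ro with Control across probe sets. With the replicate number as a block, limma called 0 members and 0 probe sets in each comparison, as without it.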

Other observations

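Control replicate 2 differed from the other 5 arrays in more lipid genes than those described. Fabp5, the fatty acid carrier, was at 4467 on it, 372 on Control replicate 1 and 251.1 to 530.4 on the RA and Ro arrays. Dgat1, which makes triglycerides, was at 2214 on it, 764 on Control replicate 1 and 605 to 756 on the RA and Ro arrays. Lbr, a sterol reductase that is also the lamin B receptor, was at 1115 on it and 3529 on Control replicate 1, with 3801 to 4731 on the RA and Ro arrays. Marker sums of other cells differed on that array too. The NK cell markers summed to 5663, against 492 on Control replicate 1. That gap lay in Klrd1 (2534 against 196) and Nkg7 (3114 against 285). Ncr1 was at 11.4 against 10.0 and Klra8 at 2.67 against 0.641. The macrophage markers summed to 178, against 1447. Lyz2 held most of that gap (11.8 against 1084), Adgre1 was at 15.8 against 105, and Csf1r at 67.36 against 66.25. The part of these markers in the lipid gene values was not tested. Scd1 was higher and Srebf2 and Mylip lower on the same array, so the 32 genes did not all move the same way there. Of the 32, 24 were brighter on it than on Control replicate 1 and 8 dimmer, where 53% of all tested genes were brighter. These counts are after median scaling, and for the cholesterol genes the order depended on the scaling, as given above.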
